A study of Mus musculus with 8 samples.

Results

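Some mutations in DNM2, which encodes the membrane-severing GTPase dynamin 2, cause centronuclear myopathy, and the genes described here are the others linked to that disease. They are Mtm1, Bin1, Ryr1, Speg, Ttn, Mtmr14 and Ccdc78, together with Pik3c2b, a modifier of myotubularin deficiency. They were taken by symbol, 8 of the 22880 genes in the count tables. RNA was sequenced from the soleus, a postural calf muscle, of 4 control (Dnm2 +/+) and 4 Dnm2 wt/K562E (Dnm2 +/K562E) male mice, all 2 months old and on a C57BL/6 background. The mutant mice carry 1 knock-in allele with the K562E change at the Dnm2 locus itself, so that the mutation is present in all cells and not only in muscle fibres, and a LoxP site was left in an intron. In humans, K562E is associated with a dominant-intermediate Charcot-Marie-Tooth neuropathy. A distinct set of DNM2 mutations is linked to centronuclear myopathy. In Dnm2 wt/K562E mice, the paper described a mild myopathy-like phenotype, with smaller soleus fibres and more macrophages already at 2 months. The paper detected no significant change in centrally nucleated soleus fibres of older Dnm2 wt/K562E mice. The sequenced mice were independent animals, and 1 library was made from each. The description of the library of mutant mouse 1 spells the allele differently from its title and its genotype label, by which it was grouped.

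Muscle fibres carry the action potential inwards through T-tubules, invaginations of the plasma membrane that meet the sarcoplasmic reticulum at triads. Myotubularin (Mtm1) and the related Mtmr14 remove phosphate from the lipid PI3P and its derivative PI(3,5)P2, whereas Pik3c2b, a class II phosphoinositide 3-kinase, makes such lipids. Amphiphysin 2 (Bin1) curves the membrane of the T-tubule and binds dynamin. Ryr1 is the calcium release channel of the sarcoplasmic reticulum at the triad, Speg is a giant kinase that binds myotubularin and associates with the triad, and titin (Ttn) is the elastic filament that spans the sarcomere from Z-disc to M-band. Ccdc78 takes part in the amplification of centrioles. In centronuclear myopathy the nuclei lie in the fibre centre and the triads are commonly disorganized.

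Of the 8 genes, Ryr1, Speg and Ttn were lower in Dnm2 wt/K562E soleus, at 64.7%, 66.4% and 74.6% of the control level. Mtm1, Bin1, Mtmr14 and Pik3c2b did not pass the test in either direction, and Ccdc78 was too low to be tested. A gene passed at an adjusted p under 0.05 in the quasi-likelihood test of edgeR, with Benjamini-Hochberg adjustment over all 14001 genes tested. Of all tested genes, 21.7% were lower and 22.2% were higher by this rule, so that 3 lower genes of 7 tested and 0 higher ones have to be read against a transcriptome in which a large share of genes differed. The number of higher genes was also 0 at an unadjusted p under 0.05, with DESeq2 and with the exact test of edgeR. With the additional requirement of a log2 fold change of at least 0.58, 7.85% of the tested genes were lower, among them Ryr1 and Speg but not Ttn. Levels are given as normalized CPM, that is, counts relative to the library size (CPM) after scaling with the TMM factors of edgeR, which balance the libraries on genes that differ little between them.

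The promoter windows of the 3 lower genes are shown because these genes moved in the same direction. The sequences are from RefSeq on GRCm38.p6, from 250 bases before to 50 bases after the transcript start, written 5′ to 3′ on the strand of the gene, and the capitals mark matches to the MEF2 motif, the site of a family of muscle transcription factors.
Ryr1 (chr7:29125102-29125401, minus strand): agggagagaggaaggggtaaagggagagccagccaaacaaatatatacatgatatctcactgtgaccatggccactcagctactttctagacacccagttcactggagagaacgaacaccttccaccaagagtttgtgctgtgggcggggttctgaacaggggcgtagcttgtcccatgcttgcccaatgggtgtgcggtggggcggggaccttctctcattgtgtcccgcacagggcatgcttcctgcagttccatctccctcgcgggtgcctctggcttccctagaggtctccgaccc
Speg (chr1:75375047-75375346, plus strand): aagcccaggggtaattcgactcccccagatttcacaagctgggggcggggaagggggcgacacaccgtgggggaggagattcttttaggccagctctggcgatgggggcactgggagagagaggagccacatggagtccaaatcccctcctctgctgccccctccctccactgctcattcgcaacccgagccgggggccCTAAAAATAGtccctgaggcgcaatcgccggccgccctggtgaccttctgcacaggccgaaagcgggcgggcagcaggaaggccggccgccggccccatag
Ttn (chr2:76982498-76982797, minus strand): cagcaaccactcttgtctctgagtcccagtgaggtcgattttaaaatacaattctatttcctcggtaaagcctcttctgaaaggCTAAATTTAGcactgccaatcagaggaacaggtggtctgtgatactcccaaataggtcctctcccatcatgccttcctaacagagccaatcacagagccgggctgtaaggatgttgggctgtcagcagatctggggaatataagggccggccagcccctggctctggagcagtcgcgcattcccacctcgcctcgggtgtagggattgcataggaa
Speg has 4 annotated starts, and the window of the first is printed. Titin held 1 match 166 bases before its start and the first start of Speg held 1 match 51 bases before it, whereas Ryr1 held none. The table held 12 windows for 7 of the 8 genes, and these 2 were the ones with a MEF2 match, beside 3.19% of all 32851 windows searched on both strands. CANNTG, the general motif of basic helix-loop-helix factors such as MyoD, was present in 11 of the 12 windows, the exception being Ryr1, and in 72.3% of all windows. CAGCTG, which is contained in CANNTG, was present in 2 of the 12 windows, both at later starts of Speg, and in 16.3% of all windows. These matches describe the letters in the windows and do not show that a factor bound there.

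Ryr1 (ENSMUSG00000030592, chromosome 7, 29003344 to 29125179, minus strand on GRCm38, 109 exon blocks) had a normalized CPM of 1693, 1628, 1632 and 1640 in controls 1 to 4. In Dnm2 wt/K562E mice 1 to 4 it was 898, 1198, 1139 and 1028. The groups did not overlap, the controls lay close together and the mutant mice were more spread out, with a coefficient of variation of 1.83% in controls and 12.4% in mutants. The means were 1648 ± 30.2 and 1066 ± 132 (SD, n = 4 each), a log2 fold change of -0.63 (SE 0.0864, 95% interval -0.82 to -0.44, adjusted p = 0.00019). Its change was at percentile 7.96 of the log2 fold changes of all tested genes.

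Speg (ENSMUSG00000026207, chromosome 1, 75375297 to 75432320, plus strand, 48 exon blocks) had a normalized CPM of 299, 325, 301 and 323 in the 4 controls and of 188, 217, 207 and 216 in the 4 mutant mice. Here too the groups were separate, and mutant mouse 1 was the lowest, as it was for Ryr1. The means were 312 ± 13.8 and 207 ± 13.4 (SD, n = 4 each), and the log2 fold change was -0.59 (SE 0.0641, 95% interval -0.73 to -0.45, adjusted p = 3.88e-05). This was the smallest adjusted p among the 7 genes tested.

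Ttn (ENSMUSG00000051747, chromosome 2, 76703980 to 76982547, minus strand) is spread over 345 exon blocks, and its longest annotated transcript has 106824 bases. Its normalized CPM was 6297, 5474, 5288 and 5422 in the controls and 3746, 4072, 4618 and 4341 in the mutant mice. The highest mutant mouse remained below the lowest control, and control 1 stood above the other controls. The means were 5620 ± 458 and 4195 ± 373 (SD, n = 4 each), with a log2 fold change of -0.42 (SE 0.0868, 95% interval -0.61 to -0.23, adjusted p = 0.00254). The reads were counted per gene, so that a change in the use of titin exons cannot be seen in these values.

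**Figure D1:**
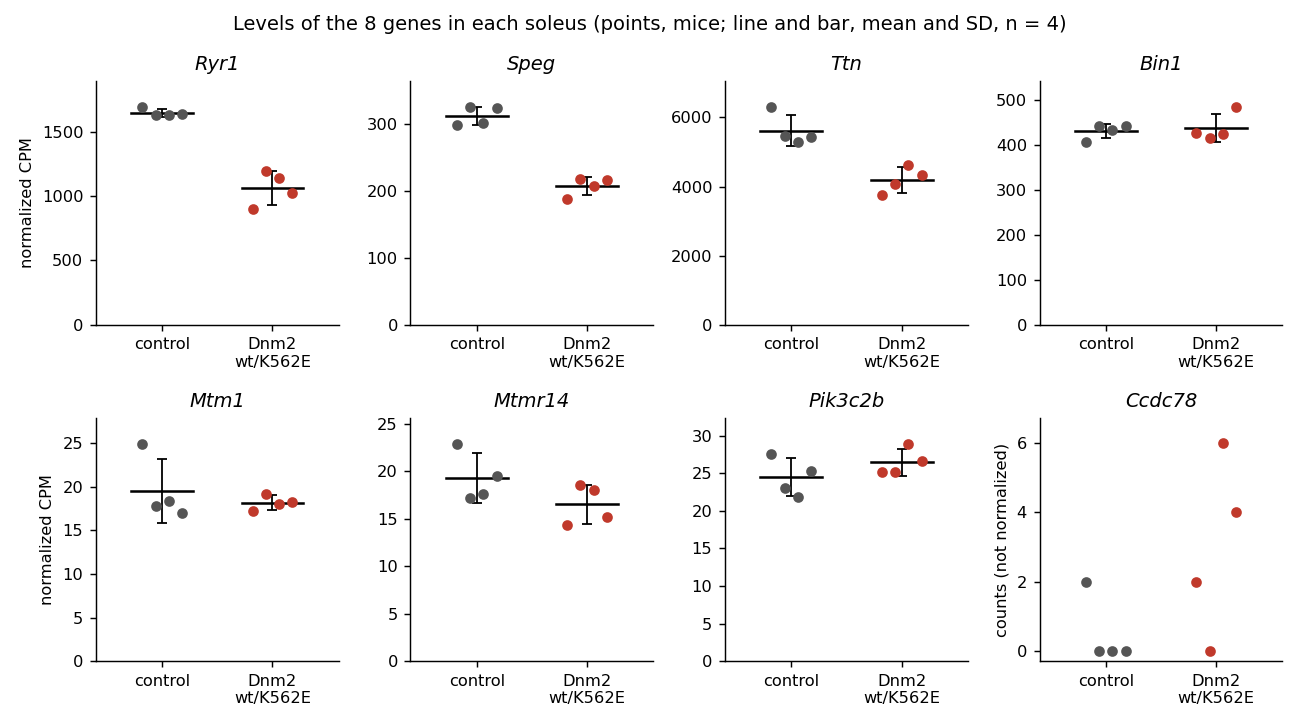
Level of each gene (vertical axes, normalized CPM, for Ccdc78 counts without normalization) in the 4 control mice (grey points) and the 4 Dnm2 wt/K562E mice (red points), with mean and SD (lines and bars, n = 4) except for Ccdc78. Ryr1, Speg and Ttn were separate between the genotypes, whereas the points of the other genes overlapped.

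Among the 7 tested genes, the separation of all mutant mice from all controls was limited to Ryr1, Speg and Ttn. Such separation was present in 41.2% of all tested genes. The 3 lower genes passed the test in each of the 8 fits that left out 1 mouse. Their log2 fold changes then ran from -0.69 to -0.56 for Ryr1, from -0.62 to -0.55 for Speg and from -0.47 to -0.37 for Ttn. Without mutant mouse 1 they were -0.56, -0.55 and -0.37. In a bulk muscle sample, fewer fibres and less RNA of a gene per fibre cannot be told apart, and the scaling enters directly. TMM factors were between 0.9145 and 0.9594 in controls and between 1.037 and 1.103 in mutants. When the libraries were instead scaled on 8 genes of the fibre body (Des, Actn2, Ldb3, Myot, Myom1, Neb, Cmya5 and Mypn), Ryr1 and Speg still passed, with log2 fold changes of -0.27 and -0.23, but Ttn did not (-0.0619, adjusted p = 0.511). With TMM factors, 7 of the 8 fibre body genes were themselves lower in mutants and 1 was higher, with a median of -0.36. They were thus not an unchanged reference. Across all genes, the fibre body scaling moved the median from 0.00743 to 0.37, and library size alone moved it to 0.22. Both scalings shift all genes by nearly the same amount. Relative to the median, Ryr1, Speg and Ttn were at -0.64, -0.60 and -0.43.

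**Figure D2:**
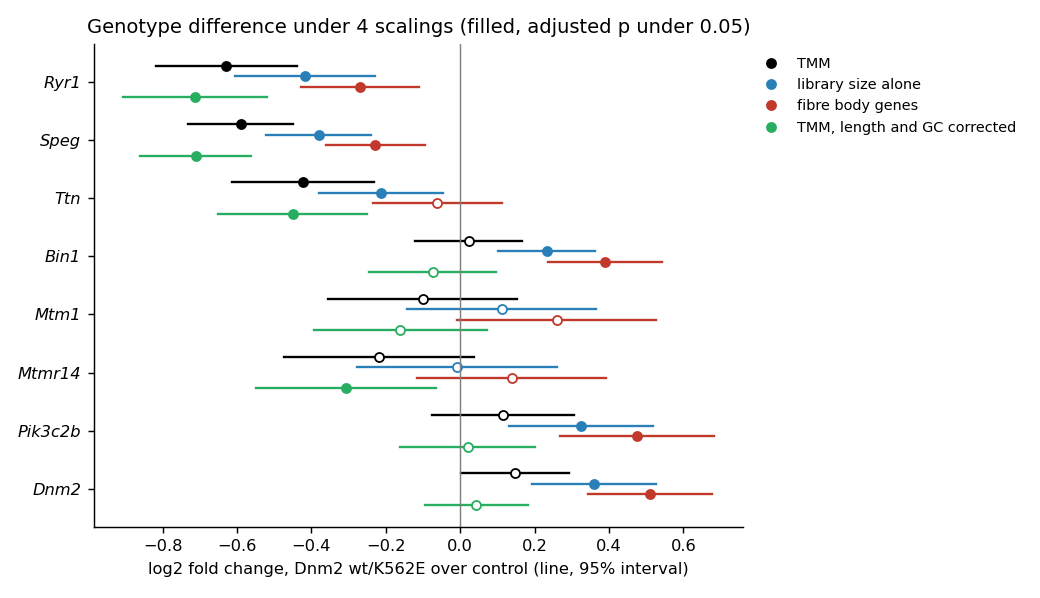
Log2 fold change of Dnm2 wt/K562E over control (horizontal axis, lines are 95% intervals) for 7 of the genes and Dnm2 under 4 scalings, with filled points at an adjusted p under 0.05. Ryr1 and Speg passed as lower under all 4, and Ttn lost its call with fibre body genes. Bin1, Pik3c2b and Dnm2 gained one as higher with library size alone and with fibre body genes. Mtmr14 gained one as lower with the length and GC correction.

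The makeup of the samples moved with genotype, and its part in the differences was not tested. None of the markers of the other cell types was at 0 in any mouse. The summed normalized CPM of 7 macrophage markers was 72.8 to 135 in controls and 179 to 296 in mutants, with 7 of 7 higher. That of 6 fibroblast markers was 2366 to 3667 and 5209 to 6837, with 6 of 6 higher, and that of 6 tendon markers 327 to 737 and 933 to 1292, with 5 of 6 higher. The 5 endothelial markers were all lower, summing to 862 to 900 and 616 to 705, and 3 of 4 satellite cell markers were lower (21 to 25.3 and 8.57 to 13.2). Slow fibre genes summed to 16430 to 19320 in controls and 10734 to 13349 in mutants, and fast fibre genes to 34501 to 36044 and 20334 to 23946, with 5 of 6 lower in each. Genes of regenerating fibres summed to 104 to 113 and 687 to 961, with 5 of 6 higher. No marker of Schwann cells or adipocytes passed as higher, with 1 of 5 and 0 of 4 lower. With fibre body scaling, 1 of 5 endothelial and 2 of 6 slow fibre genes were lower and 3 of 5 Schwann cell markers higher, and with library size alone 2 of 5 endothelial markers were lower. The counts of macrophage, fibroblast and tendon markers stood at 7, 6 and 5 higher under each of these scalings. Myh7 and Myh2, the myosins typical of mouse soleus, were abundant in every mouse, whereas Myh4, typical of fast muscles, ran from 163 to 3134 in controls, where control 4 was highest, and from 34.0 to 50.9 in mutants.

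Bin1 (ENSMUSG00000024381, chromosome 18, 32377230 to 32435737, plus strand, 19 exon blocks) had a normalized CPM of 408, 444, 433 and 442 in controls. In the mutant mice it was 427, 417, 426 and 485. The groups overlapped, with mutant mouse 4 above all other mice. The log2 fold change was 0.0231 with a 95% interval of -0.12 to 0.17 (adjusted p = 0.798). With TMM factors, this interval corresponds to 92.0% to 112% of the control level. Bin1 passed as higher with library size alone (0.23, adjusted p = 0.00743) and with fibre body scaling (0.39, adjusted p = 0.000684). Bin1 is spliced differently in muscle and other tissues, and isoforms were not resolved by these counts. Of the 31-base stretches in its transcripts, 5.47% also occur in A830052D11Rik, so that some reads could belong to that gene.

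Mtm1 (ENSMUSG00000031337, chromosome X, 71210767 to 71315691, plus strand, 16 exon blocks) was read far less often, at 24.9, 17.8, 18.4 and 17.0 normalized CPM in controls and 17.2, 19.2, 18 and 18.3 in mutants. Control 1 was the highest of all mice, and without it the controls and the mutants covered much the same range. The means were 19.5 ± 3.63 and 18.2 ± 0.809 (SD, n = 4 each). The log2 fold change was -0.10 (95% interval -0.36 to 0.15, adjusted p = 0.506), which corresponds to 78.1% to 111% of the control level. Without control 1 its sign turned, to 0.0281. It was also positive with library size alone (0.11) and with fibre body scaling (0.26), and passed with neither.

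Mtmr14 (ENSMUSG00000030269, chromosome 6, 113237843 to 113281392, plus strand, 21 exon blocks) had a normalized CPM of 22.9, 17.2, 17.6 and 19.5 in controls and of 14.4, 18.6, 18 and 15.2 in mutants. Mutant mice 2 and 3 lay within the control range and mutant mice 1 and 4 below it. The log2 fold change of -0.22 (95% interval -0.47 to 0.036) did not pass (adjusted p = 0.148), and the interval allows a level of 72.0% to 103% of control. When gene length and GC content were corrected for, the value was -0.31 and passed (adjusted p = 0.0398), and with fibre body scaling it was 0.14 and did not. Control 1 was the highest control for Mtmr14 and also for Ryr1, Ttn, Mtm1 and Pik3c2b.

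Pik3c2b (ENSMUSG00000026447, chromosome 1, 133045667 to 133108687, plus strand, 34 exon blocks) had a normalized CPM of 27.6, 23.0, 21.9 and 25.3 in controls and of 25.1, 25.2, 28.9 and 26.6 in mutants. The groups overlapped, with control 1 above 3 of the 4 mutant mice. The log2 fold change was 0.11 (95% interval -0.0749 to 0.30, adjusted p = 0.305), or 94.9% to 124% of the control level with TMM factors. Pik3c2b passed as higher with library size alone (0.32, adjusted p = 0.0105) and with fibre body scaling (0.48, adjusted p = 0.00123). The ratio of Mtm1 to Pik3c2b counts, phosphatase to kinase, was 0.796 ± 0.0982 in controls and 0.689 ± 0.0554 in mutants (SD, n = 4 each, exact two-sided permutation test p = 0.171). This ratio was chosen after the counts had been seen.

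Ccdc78 (ENSMUSG00000071202, chromosome 17, 25786580 to 25790513, plus strand, 12 exon blocks) had 2, 0, 0 and 0 counts in controls and 2, 0, 6 and 4 counts in mutants. It did not pass the filter on low counts and was not tested. A count of 0 allows up to 3 counts, which is between 0.0672 and 0.0894 normalized CPM in these libraries, so expression above that limit was not seen in 4 of the mice and a genotype difference was not detectable at this depth. Its exons overlap Fam173a on the other strand over 223 bases and share 10.4% of their 31-base stretches with other genes, and whether the strand was used in counting is not stated, so that the few counts may not be its own.

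Per length, the genes spanned a wide range of abundance. Normalized CPM per kilobase of the longest annotated transcript was 161 ± 6.23 for Bin1 in controls, followed by Ryr1 (107 ± 1.97), Ttn (52.6 ± 4.29) and Speg (28.9 ± 1.28). Far lower came Mtmr14 (7.21 ± 0.971), Mtm1 (4.75 ± 0.882) and Pik3c2b (3.09 ± 0.319; SD, n = 4 for all), and Ccdc78 was last. The ranges of neighbours in this order did not overlap among the controls, nor among the mutants, where the order was the same. The separation depends on the length taken: per kilobase of all annotated exon bases, Pik3c2b (2.65 in controls) was above Mtm1 (1.4). The triad and sarcomere genes Bin1, Ryr1, Ttn and Speg were thus the abundant ones, and the lipid enzymes Mtmr14, Mtm1 and Pik3c2b the scarce ones. In mutants Ryr1 was at 69.4 ± 8.61 beside 164 ± 11.7 for Bin1, Ttn at 39.3 ± 3.49 and Speg at 19.2 ± 1.24. Dnm2 itself was at 18.9 ± 1.35 in controls, below Speg, and at 20.9 ± 0.691 in mutants, where its range of 20.0 to 21.7 met that of Speg, 17.4 to 20.1. With all exon bases as the length, Speg stayed above Dnm2 in the means of both genotypes (24.5 and 12.4 in controls, 16.3 and 13.8 in mutants).

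Dnm2 carries the mutation and was the reference for a comparison within each mouse, which needs no scaling. Its normalized CPM was 68.8, 68.5, 59.2 and 68.7 in controls and 74.2, 76.1, 73.2 and 70.3 in mutants. The log2 fold change was 0.15 (SE 0.0655, 95% interval 0.00269 to 0.29, adjusted p = 0.0909). All mutant mice were above all controls in Dnm2 itself, which shifts every ratio to it downwards in mutants. Dnm2 passed as higher with library size alone (0.36, adjusted p = 0.00271), fibre body scaling (0.51, adjusted p = 0.000196) and upper quartile scaling (0.18, adjusted p = 0.0479). Counts per gene do not tell the K562E allele from the normal one, so the level of Dnm2 does not check the genotype labels. In the paper, aligned reads with the K562E change were absent from controls. Both alleles were about equally abundant in its mutant soleus samples. The ratio of Ryr1 to Dnm2 counts fell from 24.9 ± 1.78 to 14.5 ± 1.68, that of Speg from 4.72 ± 0.303 to 2.82 ± 0.223 and that of Ttn from 84.9 ± 6.41 to 57.2 ± 6.18 (SD, n = 4 each). For Mtmr14 the ratio was 0.332, 0.251, 0.297 and 0.284 in controls and 0.194, 0.244, 0.246 and 0.217 in mutants. Its groups were thus separate relative to Dnm2, narrowly, although they overlapped in normalized CPM. These 4 ratios had the smallest p that the exact two-sided permutation test can give with 4 against 4 mice (p = 0.0286), which became 0.05 after Benjamini-Hochberg adjustment over 7 ratios and so did not fall under the threshold. Of all 13090 tested genes with at least 10 counts in every mouse, 42.3% were separate between genotypes in the same ratio. The differences of the mean log2 ratios were -0.79 for Ryr1, -0.74 for Speg, -0.57 for Ttn and -0.37 for Mtmr14. For Mtm1 it was -0.24 (exact permutation p = 0.171), for Bin1 -0.13 (p = 0.229) and for Pik3c2b -0.0317 (p = 0.771), and these groups overlapped.

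**Figure D3:**
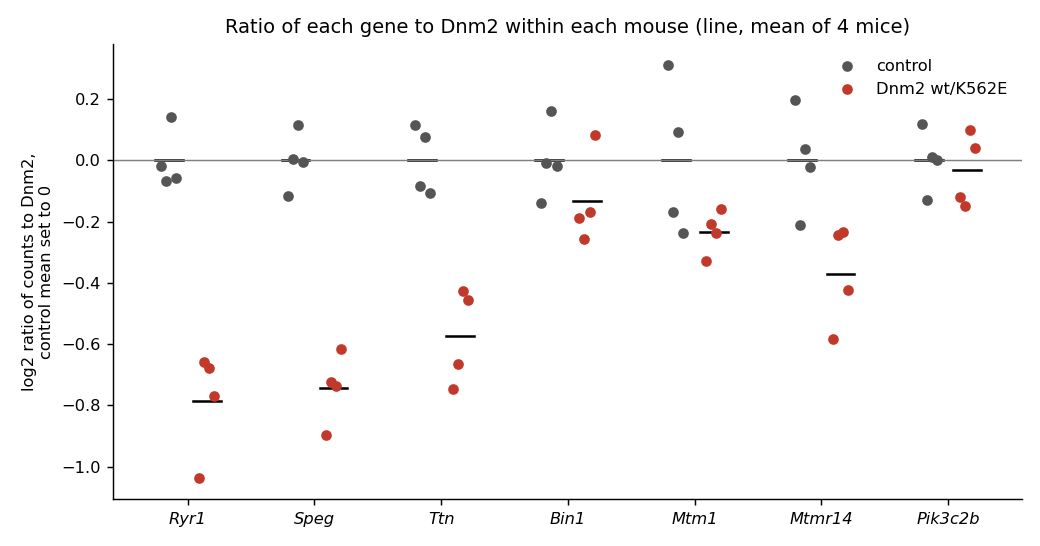
Log2 ratio of the counts of each gene to those of Dnm2 in the same mouse (vertical axis, control mean set to 0) for 4 control (grey) and 4 Dnm2 wt/K562E mice (red), with lines at the means. All mutant mice were below all controls for Ryr1, Speg, Ttn and Mtmr14, and the mean difference was smallest for Pik3c2b, at -0.0317.

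The other genes of the triad moved with Ryr1 and Speg in the majority. Of 16 T-tubule and triad genes, 10 were lower and 3 higher, with a median log2 fold change of -0.34 beside 0.00743 for all tested genes. Among the lower genes were junctophilin 1 (Jph1), which ties the T-tubule to the reticulum (-0.94, adjusted p = 8.58e-07), Stac3, which couples the voltage sensor to the release channel (-1.10, adjusted p = 1.83e-06), and the calcium-binding reticulum protein Hrc (-0.67, adjusted p = 1.38e-05). In the other direction Cacng1, a subunit of the voltage-gated calcium channel, rose by 1.07 (adjusted p = 2.79e-06). Jph1 showed little spread, with 180, 172, 191 and 188 normalized CPM in controls and 93.4, 95.7, 95.4 and 97.7 in mutants. With fibre body scaling the list had 4 lower and 6 higher genes and a median of 0.0248, and Jph1, Stac3 and Hrc were among those that stayed lower.

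Genes that bind titin or resemble titin and Speg went in both directions. Of 24 genes, 16 were lower and 7 higher, with a median of -0.30. The range went from the kinase Mylk4 (-2.50, adjusted p = 1.16e-05) to Ankrd1, a titin-binding ankyrin repeat protein (4.52, adjusted p = 9.34e-08). The calcium-dependent protease Capn3, which binds titin, was lower (-0.88, adjusted p = 4.03e-06), and the M-band protein Myom2 was higher (1.20, adjusted p = 2.84e-06). Fibre body scaling left 6 lower and 7 higher genes, with a median of 0.0652. Des, Actn2, Myom1, Neb and Mypn are in this list and also define that scaling, so this median is partly set by it. Of 20 other congenital myopathy genes, 13 were lower and 3 higher, with a median of -0.36, from Kbtbd13, a ubiquitin ligase adaptor of nemaline myopathy (-1.36, adjusted p = 7.85e-05), to Klhl40, another such adaptor (0.80, adjusted p = 0.000626). Stac3, Myh2 (-0.62, adjusted p = 0.000136) and Tpm2, which encodes beta-tropomyosin (-0.61, adjusted p = 0.000232), were also lower. With fibre body scaling, 4 were lower and 5 higher, and the median was 0.00499. Here Neb is both in the list and among the genes of the scaling.

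The genes related to Mtm1, Mtmr14 and Pik3c2b, not all of which encode enzymes, showed smaller differences. Of 12 other myotubularin family genes, 3 were lower and 3 higher, with a median of 0.04. The phosphatase Mtmr6 was higher (0.39, adjusted p = 0.000228), whereas Mtmr3 (-0.26, adjusted p = 0.00364), Mtmr10 (-0.37, adjusted p = 0.0111) and Mtmr4 (-0.27, adjusted p = 0.017) were lower, and Mtmr11 (0.43, adjusted p = 0.0331) had the highest value. The summed level of the family was 418 to 439 normalized CPM in controls and 423 to 431 in mutants. Of 11 tested genes of phosphoinositide 3-kinases, their partners and PI3P converting enzymes, none was lower and 4 were higher, with a median of 0.12. These were Uvrag (0.50, adjusted p = 0.000212) and Becn1 (0.27, adjusted p = 0.0092), partners of the class III kinase, and Fig4 (0.34, adjusted p = 0.00387) and Vac14 (0.26, adjusted p = 0.0177), which act on PI(3,5)P2. Pik3ca was lowest in this list, at -0.32 (adjusted p = 0.0582). It was the 1 gene lower at an unadjusted p under 0.05, and it passed with DESeq2 and with the exact test of edgeR, whereas Pik3c2g was not tested. With library size alone, the myotubularin list had 0 lower and 7 higher genes and the kinase list 0 and 7, whereas the length and GC correction gave 3 and 1 and 2 and 2. Over all tested genes, library size alone moved the median to 0.22 and the length and GC correction to -0.0822. Mtmr6, Uvrag and Fig4 passed as higher under TMM, library size alone, fibre body scaling and the length and GC correction.

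Of 8 BAR domain relatives of Bin1, which bend membranes, 2 were higher and none lower, with a median of 0.11. These were Sh3gl1 (0.36, adjusted p = 0.00994) and Bin2 (1.10, adjusted p = 0.0431), which is expressed in blood cells and had 0.770 ± 0.437 and 1.64 ± 0.392 normalized CPM (SD, n = 4 each). The lowest value was that of Sh3glb1 (-0.16, adjusted p = 0.0659), the 1 gene lower at an unadjusted p under 0.05, which passed with DESeq2 but not with the exact test of edgeR. With fibre body scaling all 8 were higher. Beside Ccdc78, 4 of 8 genes of centriole amplification were tested, and Plk4, the kinase that starts centriole duplication, was higher (0.83, adjusted p = 0.0096), with a median of 0.0103 over the 4. Cep63 was lowest, at -0.16 (adjusted p = 0.199), and Mcidas was at 0 counts in all mice.

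**Figure D4:**
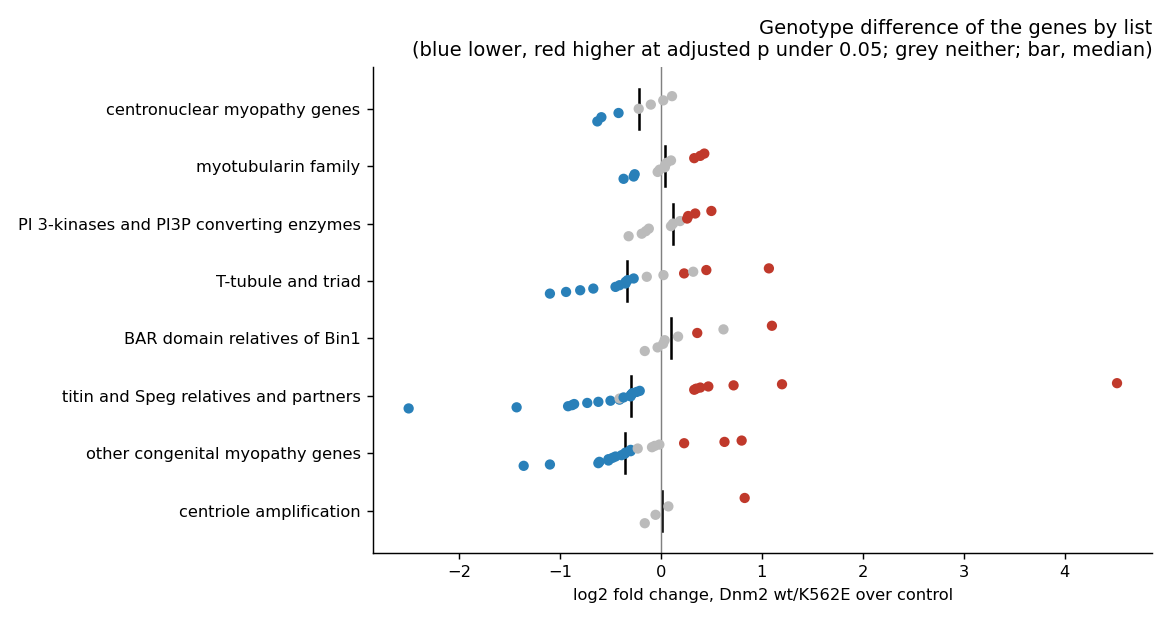
Log2 fold change of Dnm2 wt/K562E over control (horizontal axis) for each tested gene of the lists (rows), with the median as a bar. The median was -0.34 for T-tubule and triad genes and 0.04 for the myotubularin family, and the centronuclear myopathy genes comprised 3 lower genes and 4 that did not pass.

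Within genotypes, levels varied together in some of the genes. The partners named were picked as the most alike of the 98 searched, and how high such values run among unrelated genes was not tested. With the genotype mean removed from log2 CPM over the 8 mice, Ryr1 varied with Cacna1s, the voltage sensor of the T-tubule (Pearson r = 0.87), which was among the 2 most alike of the 98 genes searched. Ttn was most like nebulin, Neb (0.94), and Pik3c2b (0.84), and Speg like Tpm2 (0.73) and Stim1 (0.69). Mtmr14 was most like Mylk4 (0.98) and Mtmr11 (0.88), Mtm1 like Tcap (0.91) and Pik3r1 (0.91), Bin1 like Myom2 (0.85) and Pacsin3 (0.82), and Pik3c2b like Ttn (0.84) and Pik3c3 (0.77). Between the genes themselves, r ran up to 0.84 for Ttn and Pik3c2b and down to -0.60 for Bin1 and Mtmr14. These values describe 8 libraries, in which scaling and composition are shared by all genes, and mutant mouse 1 was the lowest mutant for 6 of the 7 tested genes, all except Bin1. Control 1 was the highest control for both genes of the pairs Ttn and Neb, Mtmr14 and Mylk4, and Mtm1 and Tcap.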

How the data were processed

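The authors trimmed reads with Trimmomatic 0.33, aligned them to GRCm38.p5 with STAR 2.5.1b and deposited raw counts per gene from featureCounts, without normalization. Overlapping genes each received a shared read. Alignments below a minimum mapping quality were not counted, and of reads with several alignments only the primary one could count. The paper describes poly A-enriched libraries and the labels a stranded total RNA kit. Use of strand is not stated.

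Totals were 33407430 to 48832814 counts per mouse. Mitochondrially encoded genes took 22.29% to 25.91% in controls and 20.41% to 23.82% in mutants. Mice were grouped by the labelled genotype. Counts were fitted with edgeR 4.0.16 in R 4.3.3 (filterByExpr with minimum count 10 and total 15, TMM factors, quasi-likelihood F-test, 14001 genes, Benjamini-Hochberg adjustment). The fit was tested on simulated data. Ratios used an exact permutation test (scipy 1.17.1). Symbols and positions came from GENCODE M21 for 22570 of 22880 IDs.

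The 8 genes, Dnm2, the range ends of each list and its 4 smallest p-values that passed were named, and, by likeness over the mice, the 2 most alike genes of each of the 8 that was tested. One of these is not reported here. Members and lists were chosen with earlier results of these data known. Alternatives were the edgeR exact test, DESeq2 1.42.0, median-ratio, upper quartile, library size or fibre body scaling, other count filters, a length and GC correction (mgcv 1.9.3), 1 surrogate variable (sva 3.50.0), leaving out mitochondrial genes or each mouse, and a replicate block. Intervals cover 95%.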

Additional observations from a re-analysis of the deposited data

Results flagged for a closer look

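Among 32 groups of 4 mice examined for a mouse far from the others, 2 held one, and chance alone gives about 1 in 20 groups. For Bin1, Dnm2 wt/K562E mouse 4 was at 485 normalized CPM, and the other mutant mice were between 417 and 427. For Dnm2, control 3 was at 59.2, and the other controls were between 68.5 and 68.8.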

How the results depend on the processing

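Ryr1 and Speg kept their direction and an adjusted p under 0.05 under every alternative run, with log2 fold changes from -0.71 to -0.27 and from -0.71 to -0.23. With fibre body scaling, the values were -0.0619 for Ttn (adjusted p = 0.511), 0.26 for Mtm1, 0.39 for Bin1 (adjusted p = 0.000684), 0.14 for Mtmr14 and 0.48 for Pik3c2b (adjusted p = 0.00123). Of the 7 tested genes 2 were higher, as was Dnm2 (0.51, adjusted p = 0.000196), with 913 lower and 7822 higher genes in all. With library size alone the values were 0.11 for Mtm1, 0.23 for Bin1 (adjusted p = 0.00743) and 0.32 for Pik3c2b (adjusted p = 0.0105). Again 2 of the 7 were higher, as was Dnm2 (0.36, adjusted p = 0.00271), with 1504 lower and 5608 higher genes in all. These scalings turn the share of lower calls from 49.5% to 10.5% and 21.1%, and the length and GC correction to 61.3%, which gave -0.0742 for Bin1 and -0.31 for Mtmr14. The fold change limit of 0.58 left 1099 lower and 1806 higher genes and removed Ttn (-0.42). Without 1 mouse, Mtm1 ran from -0.17 to 0.0281, Bin1 from -0.0289 to 0.0469, Mtmr14 from -0.28 to -0.14 and Pik3c2b from 0.0634 to 0.17. Bin1 turned without control 1 or mutant mouse 4. The causes were not tested. A replicate block by title numbers gave -0.64 for Ryr1 (adjusted p = 0.00174), 3 lower genes of the 7, and 2523 lower and 2608 higher genes in all, and no call among the 7 changed with either block. Same-numbered mice had mean correlations of -0.114 (title) and -0.0302 (description), which give no sign that the numbers pair the mice but cannot exclude it. Depth left Ccdc78, with 6 counts at most, outside any test.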
